A study of Mytilus galloprovincialis with 18 samples.

Results

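The ribosomal proteins considered here are represented by 35 of the 1920 probe names on a spotted cDNA array of the Mediterranean mussel, Mytilus galloprovincialis. They are the probes whose description in the study's lists of modulated transcripts holds the words ribosomal protein, out of 434 described probes. The 1920 are all names on the array and are called all probes here. The paper counts fewer mussel probes and describes unrelated controls, so shares of all probes take in names that are not mussel probes. Of the 35, 18 name a protein of the large subunit, 16 a protein of the small subunit and 1 (Myt01-010C05) names no subunit, and together they cover 31 differently named proteins. Adult mussels of mixed sex were kept for 48 h in water with equimolar chloride salts of Cd, Cu and Hg, at 50, 100 or 200 nM of each metal, and the gill RNA of 3 mussels at each dose competed on the array with a pool made from the gills of 5 control mussels. Each mussel was measured on array A (exposed RNA in Cy3, pool in Cy5) and on array B with the dyes exchanged, which gives 18 arrays and 1 averaged log2 ratio of exposed mussel over control pool per probe and mussel. Each dose had its own tank, as did the controls, so that tank and dose cannot be told apart. The pool counts as 1 control sample, its own spread is not measured, and it is shared by the 3 doses.

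The members were chosen by their log2 ratios in these same mussels. The study listed a transcript at a dose when it was modulated there, and of the 35 members 6 were listed at both 100 and 200 nM (a probe of S26, L41, S27, S24, S27E and S12), 3 at 100 nM only (S14, L17 and a second probe of S26) and 26 at 200 nM only. None was listed at 50 nM. Values at a dose that chose a member are therefore given as a description without a test. Being left out at 100 or 200 nM favours values near 0 at that dose. Since the doses share the pool, a test against it at another dose is not fully free of the choice. Tests were made at 50 nM for all 35, at 100 nM for the 26 and at 200 nM for the 3. Members closest to 0 among those listed at 200 nM were S15a, with a mean log2 ratio of 0.14, and L22, with 0.20, and the 3 not listed there had 0.12 (S14), 0.19 (L17) and 0.46 (the second probe of S26).

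Ribosomes are built from ribosomal RNA and a fixed set of proteins, each present in a single copy apart from the stalk proteins. The small subunit binds the mRNA and decodes it, and the large subunit joins the amino acids and holds the tunnel through which the new chain leaves. In animals the mRNAs of these proteins are abundant and share a pyrimidine tract at their start, through which growth signals act on their translation. In the bivalve gill they come from an epithelium of ciliated, mucous and other cells together with haemocytes, and in such a bulk sample fewer cells of a type and less RNA per cell cannot be told apart.

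The members gave bright spots. Of 1260 member spots on the 18 arrays, 99.9% were more than 2 SD above the local background in both channels, against 98.7% of all spots, and 14 were saturated, 12 of them of L41. The 2 spots of a member on an array differed by a median of 0.10 log2 units, against 0.26 for all probes, and arrays A and B of a mussel by 0.23, against 0.34. Loess normalization, which removes the trend of the ratio with brightness within each array, left the median of all probes between -0.01 and 0.01 in the 9 mussels. The mussel labelled 50 nM replicate 3 stood apart. Over all probes its array A had a mean correlation of -0.145 with the A arrays of the other mussels (from -0.314 to 0.0614), where other pairs had 0.200, and its array B had -0.139, where other pairs had 0.238. The labels and methods give its dyes, so its direction is kept as labelled, but it is not settled, and values at 50 nM are also given with its sign turned.

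Ribosomal protein transcripts lay above the control pool in nearly every probe and mussel at 200 nM, and lay on both sides of it at 100 nM. At 50 nM most lay below it, a direction that rested on replicate 3, the mussel whose own direction is not settled, and that turned with median centring. The median of the members' mean log2 ratios was -0.10 at 50 nM, 0.08 at 100 nM and 0.34 at 200 nM, while the median of all 1920 probes was 0.00, 0.00 and -0.02. At 50 nM the member median was -0.01 without replicate 3, 0.08 with its sign turned and 0.04 with median centring. The SD between the 3 mussels' medians was 0.16, 0.02 and 0.11. Means above 0 were found for 5 of the 35 members at 50 nM, 20 at 100 nM and 33 at 200 nM, against 51.0%, 50.7% and 46.0% of all probes. Since 32 of the members were listed for a change at 200 nM, their distance from 0 there is a property of the choice.

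Mussel by mussel, the member median was 0.08, -0.06 and -0.23 in replicates 1, 2 and 3 at 50 nM. It was 0.05, 0.07 and 0.04 in the mussels exposed to 100 nM and 0.29, 0.25 and 0.45 in those exposed to 200 nM. All 3 mussels at 200 nM stood above all 6 others. Above 0 were 23, 12 and 0 of the 35 members in the mussels at 50 nM, 20, 21 and 19 at 100 nM and 33, 31 and 33 at 200 nM. The mussel with none, 50 nM replicate 3, is the one whose direction is not settled, and 51.8% of all probes lay above 0 in it. It held the lowest value of its dose for 29 of the 35 members, and at 200 nM replicate 3 held the highest value for 21 and replicate 2 the lowest for 21. At 100 nM no mussel led in this way, each being the highest for 9 to 14 members and the lowest for 10 to 14.

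**Figure D1:**
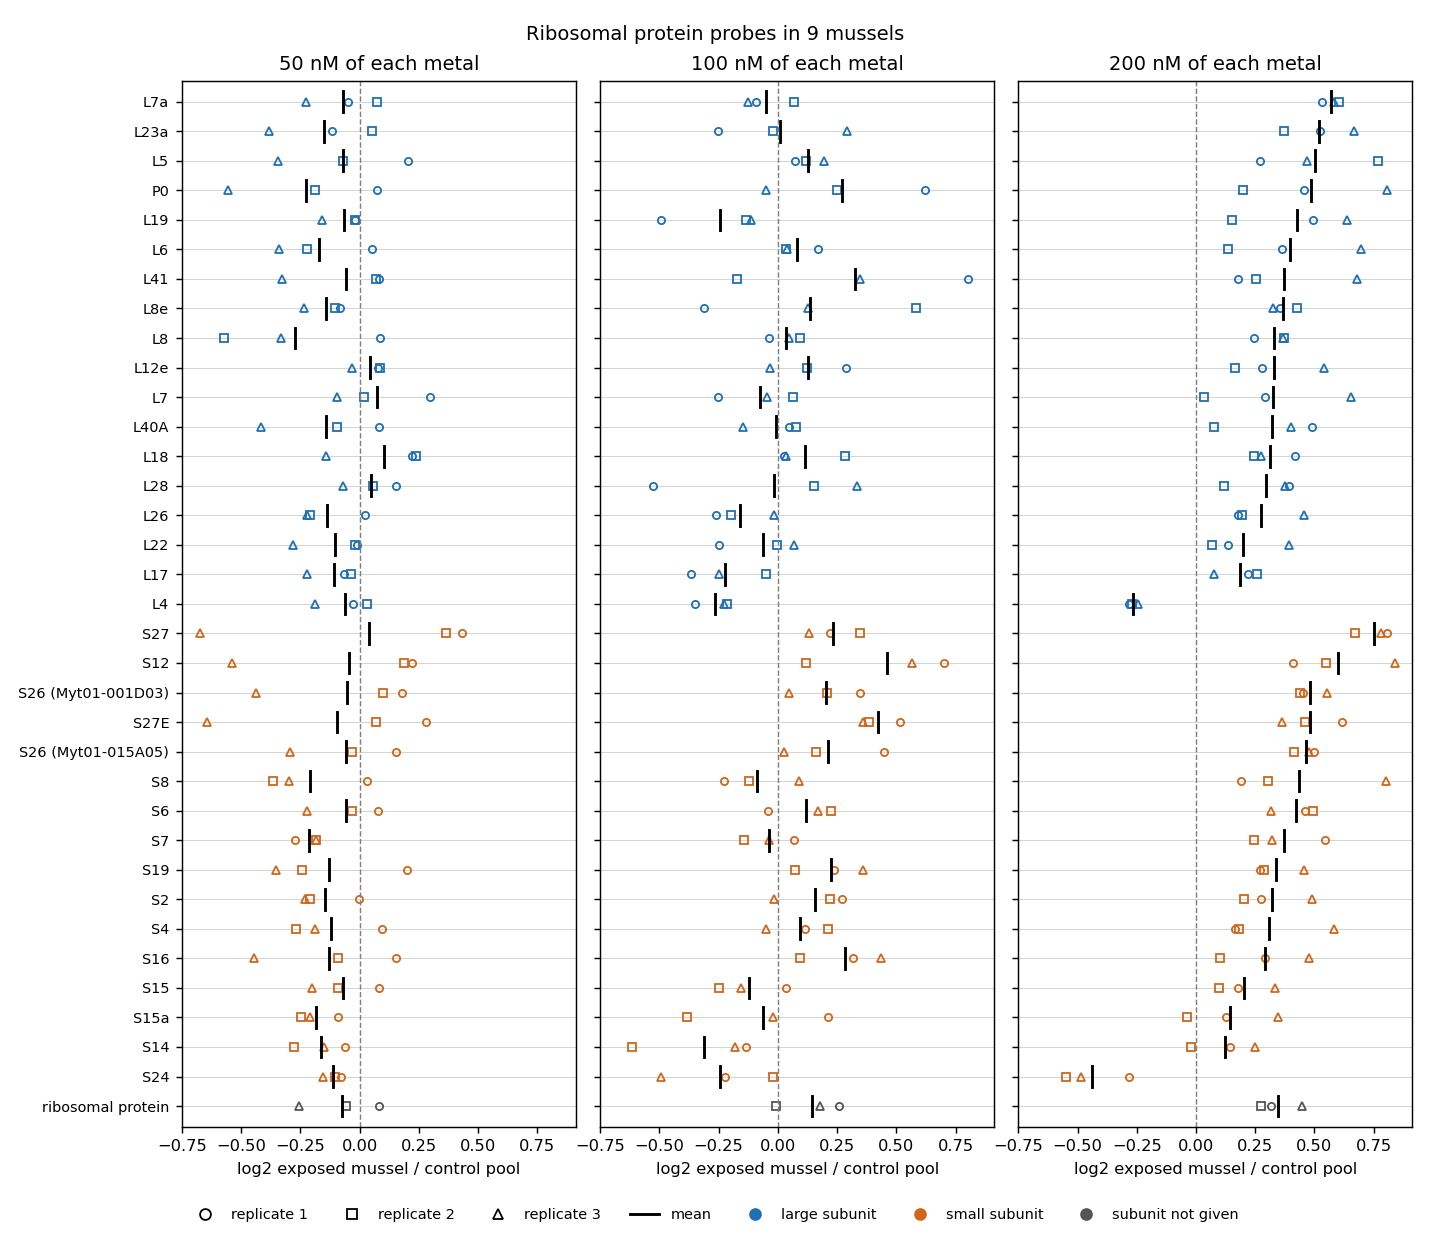
Log2 ratio of each ribosomal protein probe (rows, ordered within a subunit by the mean at 200 nM) in the 3 mussels of each dose, with black bars for means. At 200 nM only L4 and S24 lie below 0 in all 3 mussels, and at 50 nM the triangles of replicate 3 lie below 0 in all 35 rows.

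The spread between members differed between mussels as well. Within 1 mussel the SD over the 35 members was 0.14, 0.18 and 0.15 at 50 nM, 0.33, 0.23 and 0.22 at 100 nM and 0.22, 0.25 and 0.27 at 200 nM, against 0.36 to 0.49 over all probes. For a single member, the SD between the 3 mussels of a dose had a median of 0.19, 0.16 and 0.15 at the 3 doses, against 0.27, 0.24 and 0.23 for all probes. The members also tended to deviate together: their deviations from the dose mean had a mean pairwise correlation of 0.31 over the 9 mussels, which share 1 pool, against 0.00 between all probes. Without 50 nM replicate 3 it was 0.14 for the members. The value for all probes is near 0 because loess centres each array. It therefore does not show how far other bright probes deviate together.

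**Figure D2:**
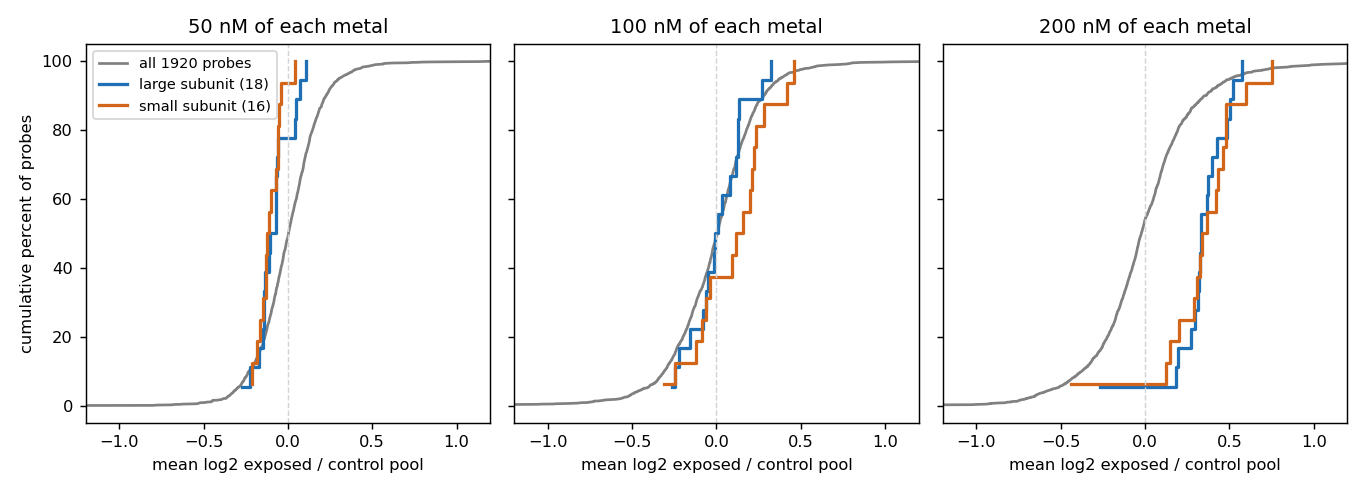
Cumulative percent of probes (vertical axis) against the mean log2 ratio (horizontal axis, shown from -1.2 to 1.2) at each dose, for large subunit members, small subunit members and all 1920 probes. The curves of both subunits lie left of the grey curve for most members at 50 nM, close to it for the large subunit at 100 nM, and right of it at 200 nM, the dose at which 32 of the 35 were chosen.

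Among large subunit proteins, L7a, a protein that binds ribosomal RNA, had the highest mean at 200 nM. Its log2 ratio was -0.05, 0.07 and -0.23 in the mussels at 50 nM, -0.09, 0.07 and -0.13 at 100 nM and 0.53, 0.60 and 0.58 at 200 nM. Values at 50 and 100 nM overlapped, and those at 200 nM stood above all of them. The mean at 200 nM, 0.57 ± 0.04 (SD, n = 3), corresponds to 1.49-fold the pool. It is given without a test, since values at this dose chose L7a.

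Several large subunit proteins bind around the mouth of the exit tunnel. L23a, a docking site for factors that meet the new chain, had -0.12, 0.05 and -0.38 at 50 nM, -0.25, -0.02 and 0.29 at 100 nM and 0.52, 0.37 and 0.67 at 200 nM, where the mean was 0.52 ± 0.15. All 3 mussels at 200 nM exceeded the other 6, but not with 50 nM replicate 3 turned. L17, of the same region, was listed at 100 nM only. It had -0.07, -0.04 and -0.22 at 50 nM, -0.36, -0.05 and -0.25 at 100 nM and 0.22, 0.26 and 0.08 at 200 nM. All values were below 0 at the lower doses and above 0 at 200 nM, where the mean was 0.19 ± 0.10. With 50 nM replicate 3 turned, that mussel lay above 0 too. The test at 200 nM, a dose that had not listed L17, was not passed (limma, SE 0.12, adjusted p = 0.489). There 2.03% of all probes passed, 0.885% being higher and 1.15% lower.

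L4, which sends a long loop into the tunnel wall, ran against most members. It had -0.03, 0.03 and -0.19 at 50 nM, -0.35, -0.21 and -0.23 at 100 nM and -0.28, -0.27 and -0.24 at 200 nM. Mussels at 100 and 200 nM overlapped, and all 6 of them were below all 3 at 50 nM. The means were -0.26 ± 0.08 at 100 nM, which had not been used to choose it, and -0.27 ± 0.02 at 200 nM, or 0.83-fold the pool. The value at 200 nM lay mostly in 1 dye orientation, with -0.52, -0.40 and -0.46 on array A but -0.05, -0.14 and -0.03 on array B. Its SD of 0.02 is that of averages over both arrays. At 100 nM array A had -0.48, -0.17 and -0.24 and array B -0.22, -0.25 and -0.22. In limma at 100 nM L4 had the smallest unadjusted p of the 26 members tested there, 0.0449 (SE 0.12), and an adjusted p of 0.513.

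L5, which carries the 5S ribosomal RNA into the subunit, had 0.20, -0.07 and -0.35 at 50 nM, 0.07, 0.12 and 0.20 at 100 nM and 0.27, 0.77 and 0.47 at 200 nM. The groups at 50 and 100 nM overlapped, and all mussels at 200 nM lay above them, replicate 2 farthest. With 50 nM replicate 3 turned, L5 at 200 nM no longer lay wholly above 50 nM. P0, the base of the stalk to which elongation factors bind, had 0.07, -0.19 and -0.56 at 50 nM, 0.62, 0.25 and -0.05 at 100 nM and 0.45, 0.20 and 0.81 at 200 nM. Its mussels at 100 and 200 nM overlapped. L40A, a protein made as a fusion with ubiquitin, had 0.08, -0.10 and -0.42 at 50 nM, 0.05, 0.08 and -0.15 at 100 nM and 0.49, 0.07 and 0.40 at 200 nM, where replicate 2 was within the range of both lower doses. The means at 200 nM were 0.50 ± 0.25 for L5, 0.49 ± 0.30 for P0 and 0.32 ± 0.22 for L40A.

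L41, the shortest ribosomal protein, was listed at 100 and 200 nM. It had 0.08, 0.07 and -0.33 at 50 nM, 0.80, -0.17 and 0.35 at 100 nM and 0.18, 0.25 and 0.68 at 200 nM. Its mussels at 100 nM, on both sides of 0 (mean 0.33 ± 0.49), overlapped those of both other doses, and those at 200 nM were above those at 50 nM. With 50 nM replicate 3 turned, L41 at 200 nM no longer lay wholly above 50 nM. Its 12 saturated spots limit how far its ratio can be read. L8 and L8e are described after different molluscs but belong to the same contig of the array's design. L8 had 0.08, -0.57 and -0.33 at 50 nM, -0.04, 0.10 and 0.05 at 100 nM and 0.25, 0.37 and 0.37 at 200 nM. L8e had -0.08, -0.11 and -0.23 at 50 nM, -0.31, 0.59 and 0.13 at 100 nM and 0.35, 0.43 and 0.32 at 200 nM. The probes differed by a median of 0.11 over the 9 mussels and by 0.49 in 100 nM replicate 2, and had the same sign in 8 of 9.

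The other 8 large subunit members, L28, L19, L18, L7, L6, L22, L26 and L12e, were all listed at 200 nM only, and each lay above 0 in all 3 mussels there. The highest mean among them was that of L19, which helps to bridge the subunits, with 0.43 ± 0.25, and the lowest that of L22, with 0.20 ± 0.17. L19 had -0.02, -0.02 and -0.16 at 50 nM and -0.49, -0.13 and -0.11 at 100 nM, against 0.49, 0.15 and 0.64 at 200 nM, so that only the mussels at the highest dose were above the pool. With 50 nM replicate 3 turned, that mussel was above the pool too, and L19 at 200 nM no longer lay wholly above 50 nM. L7 and L28 overlapped between 50 and 200 nM.

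In the small subunit, S27, a zinc finger protein, had the highest mean of all members at 200 nM. Its log2 ratio was 0.43, 0.36 and -0.68 at 50 nM, 0.22, 0.35 and 0.13 at 100 nM and 0.81, 0.67 and 0.78 at 200 nM. The mussels at 200 nM were above all others, and at 50 nM replicate 3 lay far below replicates 1 and 2. The mean at 200 nM was 0.75 ± 0.07, or 1.68-fold the pool. With replicate 3 turned, S27 at 50 nM was above 0 in all 3 mussels and above all 3 at 100 nM. The mussels at 200 nM then no longer lay wholly above those at 50 nM.

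S27E, a second probe described by the name of this protein, from the mussel itself, belongs to another contig than S27. It had 0.28, 0.07 and -0.64 at 50 nM, 0.52, 0.39 and 0.36 at 100 nM and 0.62, 0.46 and 0.36 at 200 nM. It had the same sign as S27 in all 9 mussels, with a median gap of 0.21 and a largest gap of 0.42 in 200 nM replicate 3. That largest gap lay in array A, where S27E had -0.04 and S27 0.78. On array B of that mussel they had 0.76 and 0.78. The mussels of S27E at 200 nM overlapped those at 100 nM, with means of 0.48 ± 0.13 and 0.42 ± 0.08, which those of S27 did not.

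S26, which lines the channel by which mRNA leaves the small subunit, has 2 probes, of different contigs, that agreed more closely. The probe Myt01-001D03 had 0.18, 0.10 and -0.44 at 50 nM, 0.35, 0.21 and 0.05 at 100 nM and 0.45, 0.44 and 0.55 at 200 nM. The probe Myt01-015A05 had 0.15, -0.03 and -0.29 at 50 nM, 0.45, 0.16 and 0.03 at 100 nM and 0.50, 0.41 and 0.48 at 200 nM. They differed by a median of 0.05 and at most by 0.14, and had the same sign in 8 of 9 mussels. The study listed the first at both doses and the second at 100 nM only, and the second had 0.46 ± 0.05 at 200 nM, against 0.48 ± 0.06 for the first. These SDs are of averages over arrays A and B, which differed more. In 200 nM replicate 3 the second had 0.08 on array A and 0.88 on array B, and the first 0.32 and 0.79. In the test open to it, the second did not pass at 200 nM (limma, SE 0.14, unadjusted p = 0.00556, adjusted p = 0.0897), but passed without background subtraction (adjusted p = 0.0360), with plain subtraction (adjusted p = 0.0454) and with all 18 arrays and the mussel as a random block (adjusted p = 0.0190). In these settings 3.18%, 5.05% and 8.54% of all probes passed. The random block fit put the correlation between arrays of a mussel at 0.0701. It thus counts them almost as separate samples, and it has no term for the dyes.

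**Figure D3:**
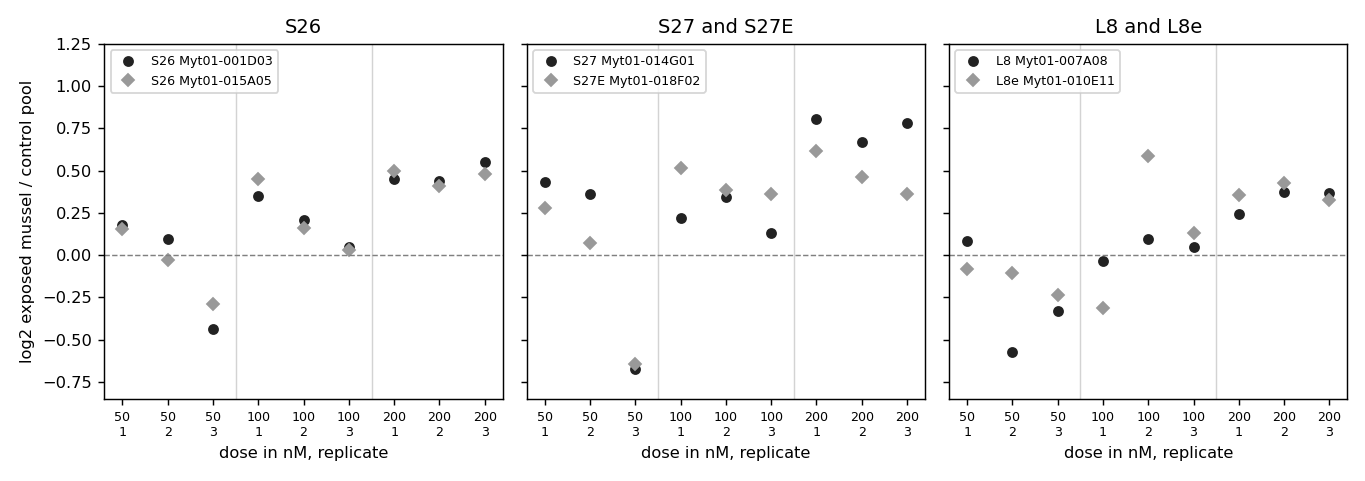
Log2 ratio in each mussel (dose in nM over replicate number) for the proteins with 2 probes. The S26 probes lie within 0.14 of each other in every mussel, while S27 lies above S27E in all 3 mussels at 200 nM and below it in all 3 at 100 nM.

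S12, on the beak of the small subunit, had 0.22, 0.19 and -0.54 at 50 nM, 0.70, 0.12 and 0.56 at 100 nM and 0.41, 0.55 and 0.84 at 200 nM. Mussels at 200 and 100 nM overlapped (means 0.60 ± 0.22 and 0.46 ± 0.30), and 100 nM replicate 2 lay within the values at 50 nM. S6, the target of the S6 kinases of the TOR pathway, had 0.08, -0.03 and -0.22 at 50 nM, -0.04, 0.22 and 0.17 at 100 nM and 0.46, 0.49 and 0.32 at 200 nM. Its mean at 200 nM was 0.42 ± 0.09, above all mussels of the lower doses.

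The lowest members counted with the small subunit were S24, S14 and S15a. S24 is described by that name and also as MRP S24, a name used for mitochondrial ribosomal proteins, so whether its probe stands for a protein of the cytosolic or of the mitochondrial ribosome is not settled. It had -0.08, -0.10 and -0.15 at 50 nM, -0.22, -0.02 and -0.49 at 100 nM and -0.28, -0.55 and -0.48 at 200 nM. It was below 0 in all 9 mussels, with a mean of -0.44 ± 0.14 at 200 nM, or 0.74-fold the pool, and its mussels at 100 and 200 nM overlapped. S14, listed at 100 nM only, had -0.06, -0.28 and -0.15 at 50 nM, -0.14, -0.62 and -0.18 at 100 nM and 0.14, -0.02 and 0.25 at 200 nM. The mussels at 200 nM were above all others, though not wholly above 50 nM with 50 nM replicate 3 turned. The mean of 0.12 ± 0.14 did not differ from 0 beyond its spread (limma, SE 0.14, adjusted p = 0.732). S15a had -0.09, -0.25 and -0.21 at 50 nM, 0.21, -0.38 and -0.02 at 100 nM and 0.13, -0.04 and 0.35 at 200 nM, with overlap between 100 and 200 nM. The other 7 small subunit members, S16, S15, S4, S2, S8, S7 and S19, had means at 200 nM between 0.20 for S15 and 0.43 for S8, each above 0 in all 3 mussels. The probe with no subunit given had 0.31, 0.27 and 0.45 there, above its 6 mussels at the lower doses, which lay between -0.26 and 0.26.

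As a description, large and small subunit members had similar log2 ratios, except in 1 mussel. The median at 200 nM was 0.33 over the 18 large and 0.35 over the 16 small subunit members, and large minus small was 0.04, -0.07 and 0.00 within the 3 mussels (mean -0.01 ± 0.06, SD). All large subunit members but L17, and all small ones but S14 and the second probe of S26, were chosen by values at 200 nM. Similar sizes there are thus in part a property of the choice. At 50 nM the medians were -0.09 and -0.12, and the difference within mussels was -0.02, 0.08 and 0.03 (mean 0.03 ± 0.05). At 100 nM they were 0.00 and 0.14, with -0.39, -0.04 and -0.03 within mussels (mean -0.15 ± 0.20). Values at 100 nM chose more small subunit members (both S26 probes, S27, S27E, S12, S24 and S14) than large ones (L41 and L17). The difference at this dose is therefore not free of the choice. No difference between the subunits exceeded the spread between mussels at any dose. Without S24 the median of the remaining 15 small subunit members was 0.37 at 200 nM, and large minus small averaged -0.02 ± 0.06 there.

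The gap at 100 nM came mostly from replicate 1. In that mussel the large subunit median was -0.17 and the small subunit median 0.22, with 7 of 18 large and 12 of 16 small subunit members above 0. Large minus small was -0.26 on its array A and -0.31 on its array B, so the gap was seen in both dye orientations. Array A of this mussel is the only array whose file header names another control image than the rest. Without this mussel the difference at 100 nM was -0.06.

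**Figure D4:**
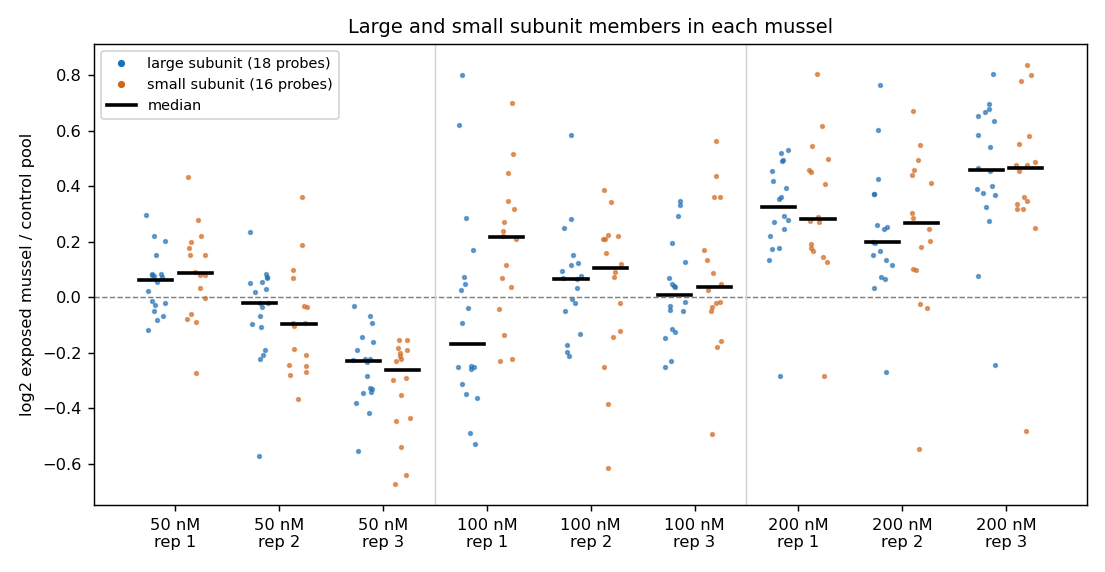
Log2 ratio of the large (18) and small (16) subunit members in each of the 9 mussels, with black bars for medians. The medians of the subunits lie within 0.08 of each other in every mussel but 100 nM replicate 1, where the large subunit is 0.39 lower.

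At 50 nM, the dose that chose no member, 30 of the 35 means were below 0 and lay between -0.27 (L8) and 0.10 (L18), with SE between 0.12 and 0.19. None passed the threshold of limma, where 0.00% of all probes passed (smallest adjusted p among members 0.992), and none had an unadjusted p under 0.05, against 3.75% of all probes. L19, S14, S2, L17, L8e, L22, S7, S15a and S24, 9 members in all, were below 0 in all 3 mussels, against 9.74% of probes, and none was above 0 in all 3, against 10.1%. Without replicate 3, 16 of 35 means were above 0. With its sign turned 29 of 35 were, 9 of them in all 3 mussels, and with median centring in place of loess 24. With the sign turned still none passed in limma, and S27 and S27E, 2 of the 35, had an unadjusted p under 0.05, against 8.23% of all probes.

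At 100 nM, the 26 members not listed there had means between -0.26 (L4) and 0.28 (S16) with a median of 0.02, and 14 were above 0 and 12 below. None passed in limma (smallest adjusted p = 0.513), where 0.00% of all probes passed. An unadjusted p under 0.05 was reached by 1 of the 26, L4, against 9.53% of all probes. S16, L5, L18, L6 and S19, 5 of the 26, were above 0 in all 3 mussels, against 18.9% of probes, and L19, L4 and L26 were below 0 in all 3, against 16.6%. S16, a protein near the site where tRNA is held, had 0.29, 0.10 and 0.48 at 200 nM, against 0.32, 0.09 and 0.44 at 100 nM, and did not differ between the doses beyond its spread. The 6 members listed at both doses had a median of 0.28 at 100 nM and the 3 listed at 100 nM only a median of -0.22, values that the choice used.

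Between 100 and 50 nM the same 26 members differed by a median of 0.15, from -0.20 (L4) to 0.50 (P0), with 20 above 0, against 49.4% of all probes. This direction too rested on 50 nM replicate 3. With its sign turned the median difference was -0.03 with 12 of 26 above 0, against 51.2% of all probes, and without it 0.07 with 16 above 0, against 50.7%. None passed in limma (adjusted p = 0.998 for each), where 0.00% of all probes passed, and none had an unadjusted p under 0.05, against 4.43% of all. The difference for P0 was 0.50 with SE 0.25, for S16 0.41 with SE 0.21 and for S19, a protein of the head of the small subunit, 0.35 with SE 0.20, and with replicate 3 turned these were 0.13, 0.11 and 0.12. S7 alone among the 26 lay at 100 nM wholly above 50 nM, and L4 wholly below, where 3.59% and 4.64% of all probes did so. With 50 nM replicate 3 turned, S7 no longer did so and L4 and L19 lay wholly below.

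For the 3 members not listed at 200 nM, S26 (Myt01-015A05), L17 and S14, the means at 200 nM were above 0, and none passed against the pool or against 50 nM. The difference from 50 nM was 0.52 (SE 0.19, adjusted p = 0.407) for S26, 0.29 (SE 0.17, adjusted p = 0.611) for L17 and 0.29 (SE 0.19, adjusted p = 0.635) for S14, in limma, where 0.00% of all probes passed between 200 and 50 nM. An unadjusted p under 0.05 was found for S26 alone in both comparisons, against 18.1% of all probes for 200 nM against the pool and 10.2% for 200 against 50 nM. For all 3, the mussels at 200 nM lay wholly above those at 50 nM, as did 7.24% of all probes. With 50 nM replicate 3 turned this held for S26 but not for L17 or S14, against 5.99% of all probes, and the difference was 0.32 (unadjusted p = 0.107, adjusted p = 0.763) for S26, 0.15 (adjusted p = 0.927) for L17 and 0.19 (adjusted p = 0.917) for S14.

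As a description, since 32 members were chosen at 200 nM, 29 of the 35 lay at 200 nM wholly above the mussels at 50 nM, and 15 wholly above those at 100 nM, against 7.24% and 7.50% of all probes. With 50 nM replicate 3 turned, 9 lay wholly above 50 nM, against 5.99%. The means increased in the order 50, 100, 200 nM for 26 of 35 members, against 18.8% of all probes, and for 16 with that mussel turned, against 15.8%. Exceptions to a higher mean at 200 than at 100 nM were L4 and S24 alone.

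The arrays of both dye orientations gave the same direction at 200 nM but not the same size. The member median was 0.18, 0.09 and 0.42 on array A, against 0.45, 0.41 and 0.52 on array B, with 29, 22 and 32 of 35 members above 0 on array A and 33, 33 and 32 on array B. At 50 nM it was 0.13, -0.14 and -0.38 on array A and 0.05, 0.01 and -0.19 on array B, so that replicate 3 was the lowest in both orientations. At 100 nM it was 0.13, 0.11 and -0.05 on array A and -0.02, 0.07 and 0.15 on array B. Over the 35 members, arrays A and B of a mussel correlated from -0.354 in 50 nM replicate 1 to 0.827 in 200 nM replicate 2, against 0.0388 to 0.476 over all probes, values taken across genes, which are not independent replicates. At 200 nM the 3 mussels had 0.424, 0.827 and 0.483.

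**Figure D5:**
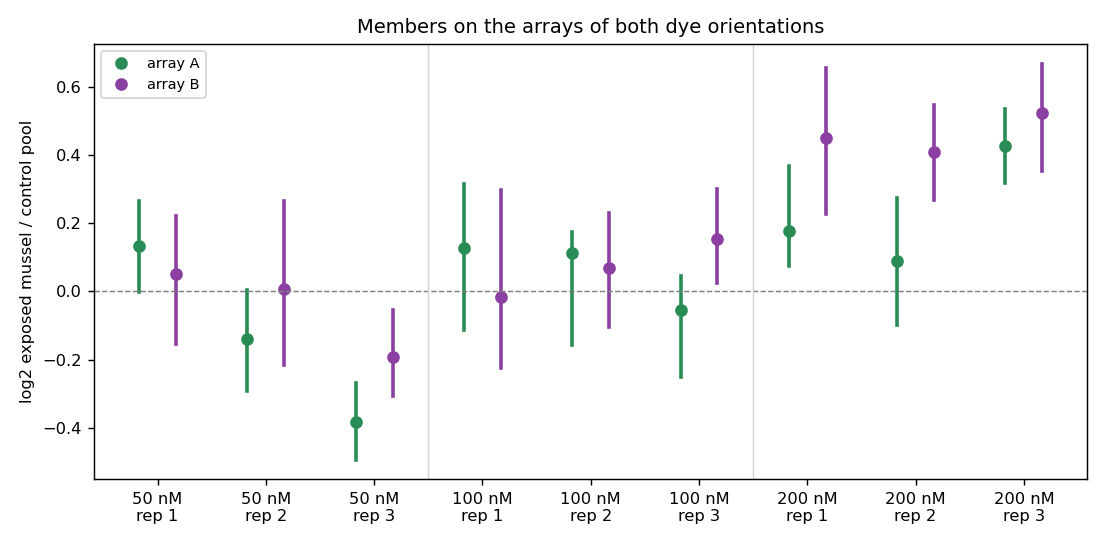
Median log2 ratio of the 35 members (point) and the range holding the middle of them, from the 25th to the 75th percentile (line), on array A and array B of each mussel. Array B is higher than array A in all 3 mussels at 200 nM, and both arrays of 50 nM replicate 3 lie below 0.

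Other translation genes in the study's lists, 18 probes in all, had a median of 0.12 at 50 nM, 0.13 at 100 nM and 0.42 at 200 nM, with 11, 14 and 15 of 18 above 0, against 51.0%, 50.7% and 46.0% of all probes. They too were listed because they were modulated in these mussels, so their direction is not independent evidence. Unlike the members, some were listed at 50 nM: elongation factor 2b, initiation factor 5A, poly(A)-binding protein and GTP-binding protein 4. None passed at any dose in limma, where 0.00% of all probes passed at 50 and 100 nM and 2.03% at 200 nM. An unadjusted p under 0.05 was found for 3, 3 and 11 of the 18 at the 3 doses, against 3.75%, 9.53% and 18.1% of all probes. The 7 probes of elongation factors, which bring tRNA to the ribosome and move it along, had a median of -0.09, 0.14 and 0.57 at the 3 doses, and in the mussels at 50 nM 0.22, 0.02 and -0.30, again lowest in replicate 3. The 5 probes of initiation factors and of poly(A)-binding protein had 0.24, 0.29 and 0.42, with 5 of 5 above 0 at 50 nM, a dose that chose some of them. Among the 3 tRNA synthetase probes and the 3 probes of ribosome assembly and the ribosome-bound RACK1 the medians at 200 nM were 0.48 and 0.24. Single probes went apart. The aspartyl-tRNA synthetase had 0.57, while the 2 probes described as leucine enzymes had -0.83 and 0.48. Nucleolar p130 had 0.29, GTP-binding protein 4 -0.04 and RACK1 0.24.

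Marker lists of the cells a gill sample can hold were taken from the same lists of modulated transcripts. The 8 ciliated cell probes (tubulins, axonemal dynein chains and a radial spoke protein) had a median of -0.20 at 50 nM, -0.54 at 100 nM and -0.67 at 200 nM, where the mussels' medians ranged from -0.70 to -0.43 and 1 of 8 means was above 0. That mean, 0.75, was of an axonemal dynein light chain probe, and the other probe with the same description had -0.92. The 4 haemocyte probes had a median of -0.54 at 200 nM (mussels from -0.57 to -0.40), the 3 foot and byssus probes -0.53 (from -0.78 to -0.31), the 3 muscle probes -0.02 (from -0.36 to 0.37) and the 4 digestive gland probes 0.03 (from -0.11 to 0.16). The foot and byssus list leaves out the byssal precollagens, of which the paper lists probes in both directions at 200 nM. Within the digestive gland list, both probes of vdg3 had means above 0 at 200 nM (0.63 and 0.44) and both glucanases means below 0 (-0.38 and -0.46). No probe of these lists passed in limma at any dose. An unadjusted p under 0.05 was found for 2, 5 and 8 of the 8 ciliated cell probes at 50, 100 and 200 nM, against 3.75%, 9.53% and 18.1% of all probes. At 200 nM it was also found for 4 of 4 digestive gland, 2 of 4 haemocyte, 1 of 3 muscle and 1 of 3 foot and byssus probes, and at 100 nM for 1 haemocyte and 1 foot and byssus probe. All were chosen because they were modulated in these mussels. Their part in the ratios of the ribosomal proteins was not tested. In the control pool 99.7% of spots of the ciliated list were more than 2 SD above background, but so were 100% of those for foot and byssus, so detection on this array does not set the gill apart.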

How the data were processed

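Gill RNA of 9 exposed mussels and 1 control pool was compared on 18 two-colour spotted cDNA arrays with 3840 spots, 2 for each of 1920 probe names, controls included. The authors quantified the scans in ScanArray Express and deposited spot intensity and local background for both channels (the intensity is before subtraction, as checked on the 1 file that also lists ratios), and separately the log2 ratios that they obtained in MIDAS by total-intensity and LOWESS normalization of each array. Median intensity per array was 361 to 1334 for exposed RNA and 245 to 2788 for the pool, and the number of arrays limits the precision. The deposited log2 ratios had column medians from -0.0135 to 0.0345 and correlated at 0.727 to 0.945 with those computed here. Both thus run in the same direction, exposed over pool as labelled, which does not test the labels. Array A of 100 nM replicate 2 lists its spots in a different sequence, so spots were joined by probe name.

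Here background was corrected by normexp (offset 50) and ratios were normalized by loess (span 0.3, 4 iterations) within each array, in limma 3.58.1 under R 4.3.3. The 2 spots of a probe and then the 2 arrays of a mussel were averaged. A limma fit of 1 mean per dose over all 9 mussels gave tests against 0 and between doses, with Benjamini-Hochberg adjustment over 1920 probes and a threshold of 0.05. It was tested on simulated data. p-values measure the spread of mussels within tanks and leave out that of the controls. Errors are SD unless SE is stated.

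The members, their lists and the tests were chosen with earlier results of these data known. Named in full are members listed at 100 nM, those below 0 at 200 nM, proteins with 2 probes, the 5 highest and 5 lowest at 200 nM, L7a, P0, S6 and L40A; S16, S19, L19 and the probe with no subunit were named after their values were seen. Of the ciliated cell markers, 1 probe is not reported here. Probe descriptions come from the study's tables and give the species of the best match. Alternatives were no or plain background subtraction, print-tip loess, median centring, scaling between arrays, the deposited ratios, leaving out dim or saturated spots, 1 array per mussel, the sign of 50 nM replicate 3 turned, leaving out each mussel, each dose fitted alone, all arrays with the mussel as random block (statmod 1.5.0) and the replicate number as a block.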

Additional observations from a re-analysis of the deposited data

Results flagged for a closer look

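Some members lay above 0 in all 3 mussels of 1 dose and below 0 in all 3 of another, and the differences were not tested, apart from that of L17 between 200 and 50 nM (limma, adjusted p = 0.611), since the values at 200 nM chose the other members and those at 100 nM chose L17. Between 200 and 50 nM, with 200 nM first, the mean log2 ratios differed by 0.50 for L19 (0.43 against -0.07), by 0.47 for S2 (0.32 against -0.15), by 0.29 for L17 (0.19 against -0.11), by 0.51 for L8e (0.37 against -0.14), by 0.30 for L22 (0.20 against -0.10) and by 0.58 for S7 (0.37 against -0.21). These are 6 of the 35 members, against 2.92% of all probes, and the 50 nM side takes in replicate 3, whose direction is not settled. With its sign turned, 0 of the 35 members lay below 0 in all 3 mussels at 50 nM. Between 200 and 100 nM they differed by 0.67 for L19 (0.43 against -0.25), by 0.41 for L17 (0.19 against -0.22) and by 0.43 for L26 (0.27 against -0.16), 3 of 35 members, against 3.33% of all probes.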

How the results depend on the processing

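The counts of members passing at 50 nM, of the 26 at 100 nM and between 100 and 50 nM, and of the 3 between 200 and 50 nM were 0 under every alternative run. Of the 3 at 200 nM, 1 (S26) passed without background subtraction, with plain subtraction and with the mussel as random block over 18 arrays, and 0 under the others. Calls among members at a dose that chose them are not given. Alternatives for the 18 other translation genes were added after seeing the data. Of those 18, 0 passed at 200 nM as reported, where 2.03% of all probes passed. With all probes' share in the same setting beside it, 1 passed without background subtraction (3.18%), 3 with print-tip loess (4.06%), 3 with each dose fitted alone (3.39%), 4 in the deposited ratios (5.62%), 5 with plain subtraction (5.05%), 6 with 50 nM replicate 3 turned (6.25%) and 9 with the random block (8.54%). Leaving out 1 mussel gave 0 to 5, with 5 passing without 50 nM replicate 3 (5.05%) and 2 without 50 nM replicate 1 (3.75%). At 100 nM 1 passed with that sign turned (0.781%), with the random block (0.938%) and without 50 nM replicate 3 (0.469%), a range of 0 to 1.

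The member median at 50 nM was 0.084 with replicate 3 turned and ranged from -0.17 to -0.01 with 1 mussel left out. At 100 nM, 0.08 as reported, it was 0.0029 without background subtraction, 0.00015 with array A alone, 0.055 in the deposited ratios, 0.062 with print-tip loess, 0.10 with array B alone and 0.11 with median centring, and ranged from 0.031, without replicate 2, to 0.091. At 200 nM it was 0.22 with array A and 0.48 with array B alone, and ranged from 0.28 to 0.38. Large minus small subunit stayed within 1 SD of its value under every alternative run and, with 1 mussel left out, ranged from 0.00 to 0.06 at 50 nM, from -0.18 to -0.06 at 100 nM and from -0.02 to 0.01 at 200 nM. The cause of these shifts was not tested. Of 2100 recomputed means of single members, 1983 stayed within 1 SD of the value reported and 117 did not, 25 of them with array A and 25 with array B alone.

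Replicate numbers do not pair the mussels: deviations of same-numbered mussels correlated from -0.101 to 0.149, with 2 of 9 pairs over 0.1. With the replicate number as a block, the count passing stayed at 0 for each set of members tested and for the 18 translation genes at each dose, while over all probes 16 passed at 200 nM, against 39 without it.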
